A study of Danio rerio with 21 samples.

Results

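Adult zebrafish cells that carried the heritable mCherry mark of an embryonic blood stem and progenitor cell (HSPC) were compared between intestine and thymus. Of the 21 single-cell libraries of the series, 4 entered: intestine and thymus of fish whose HSPCs were marked at 1 day post fertilization (dpf; early label), and the same tissues after marking at 3 dpf (late label). All fish were 4 months old. Cells were kept with at least 500 UMIs (unique molecular identifiers, each standing for 1 captured transcript), at least 200 genes, at most 20% mitochondrial UMIs and under 5% haemoglobin UMIs. Of 20520 barcodes in the 4 libraries, 19993 were kept: 7928 and 6165 from intestine and 4130 and 1770 from thymus. Pairs of values are given with the early label first throughout. Where the tissues are not named beside the values, the intestinal pair comes before the thymic one.

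The cells had been sorted for mCherry, and the labels class all 4 libraries as haematopoietic and immune cells. The intestine was dissociated with collagenase and the thymus by gentle trituration, so tissue and dissociation cannot be told apart in any value that follows. The zebrafish line, the promoter behind the mark and the number of fish per library are not given in the sources used here. Each tissue and label had 1 library. The early and late libraries therefore stood in as the 2 libraries of a tissue, and p-values measure the spread between them, which may come from the label or be technical.

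The thymus is the organ in which T cells are made: progenitors rearrange their receptor genes with the Rag recombinase, are selected on thymic epithelium, and leave. The intestine absorbs food through its epithelium and holds resident lymphocytes and macrophages. Both organs draw lymphocytes through chemokines, among them Ccl25, which binds the receptor Ccr9, and Cxcl12, which binds Cxcr4.

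UMIs were summed over the cells of a library and given as CPM (UMIs per 1000000, scaled by the trimmed mean of M-values). A gene was called different between tissues when edgeR's quasi-likelihood test gave a Benjamini-Hochberg adjusted p under 0.05 and the ratio of CPM + 5 was at least 2-fold the same way in both labels. Log2 differences are intestine minus thymus, so a negative value is higher in thymus. The libraries held between 10799061 and 42732965 UMIs, and the median cell held between 4002 and 4938.5 UMIs. At most 14 cell barcodes were shared by any pair of the 4 libraries.

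The mCherry transcript itself was read at 991 and 686 CPM of all UMIs in the intestine and at 187 and 172 CPM in the thymus, and with scaling factors it was called higher in intestine (log2 difference 1.97 ± 0.38 (SE), edgeR adjusted p = 0.021). Receptor rearrangement genes were scarce in the cells labelled thymus: rag1 UMIs numbered 144 and 16, rag2 30 and 6, and dntt, which adds bases at receptor joints, 217 and 171. In the intestine rag1 UMIs numbered 21 and 2, rag2 3 and 8, and dntt 205 and 216. Of the rearrangement list, 0 of 8 tested genes were called. The wider thymocyte development list, with 3 of 33 tested genes called each way, summed to 9209 and 10440 CPM in the thymus against 4618 and 4167 CPM in the intestine. Of the thymic epithelial regulators, foxn1 had 2 and 1 UMIs in the thymus and 7 and 1 in the intestine. Most thymic cells in these libraries therefore carried no UMI of the genes that define rearranging thymocytes. The T cell receptor constant region TCRaC stood at 23.2 and 15.6 against 14.1 and 20.4 CPM and did not pass the test (adjusted p = 0.75).

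Over all kept cells, 1227 of 17616 tested genes were called (6.97%), 440 higher in intestine (2.50%) and 787 higher in thymus (4.47%). When total counts replaced the scaling factors, the split was 572 to 527, without the early thymic library 773 genes were called, and the median log2 difference of all genes moved from 0.02 to 0.12. The genes higher in intestine were led by chaperones and by genes of absorptive epithelium, and those higher in thymus mostly by genes of macrophages and neutrophils. Also among the leading genes in thymus was the feature CU571382.1, which by its gene ID carries the symbol linc-iglc3. It stood at 310 and 1396 CPM in the thymus against 7.93 and 8.16 CPM in the intestine. In summed counts a difference in the mix of cells and a difference within a cell cannot be told apart, nor can fewer cells of a type and less RNA per cell.

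In the epithelium list, 15 of 21 tested genes were called higher in intestine and 1 higher in thymus, with a median log2 difference of 2.77 against 0.02 over all tested genes. The fatty acid binding protein gene fabp2 was read at 441 and 1319 CPM in the intestine against 0 and 0 CPM in the thymus. For apoa1a, an apolipoprotein gene of enterocytes, the levels were 654 and 2207 against 0.328 and 0.322 CPM. The late intestinal library was above the early one in both genes, and the thymic libraries were at or near 0. Others of this kind were apoea, with 390 and 1618 against 0 and 0.107 CPM, and lgals2b, a galectin gene, with 245 and 953 against 0.187 and 0 CPM. The exception was krt8, a keratin of simple epithelia, with 127 and 123 CPM in the thymus against 20.9 and 51.2 CPM in the intestine, a log2 difference of -1.79 ± 0.44 (SE; adjusted p = 0.041), a call that was lost with total counts. In the pancreas and liver list, 7 of 11 tested genes were called higher in intestine, all 7 pancreatic protease genes. The carboxypeptidase gene cpa5 was called higher in thymus, a call that was lost with total counts. As an example, prss59.1 stood at 47.0 and 84.2 against 0.0937 and 0 CPM.

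Genes of phagocytes ran the other way. Of 24 tested macrophage genes, 15 were called higher in thymus and 1, ctsl.1, higher in intestine; the median log2 difference was -2.16. The pore-forming macrophage gene mpeg1.1 stood at 185 and 113 CPM in the thymus against 21.1 and 24.7 CPM in the intestine, a log2 difference of -2.70 ± 0.34 (SE; adjusted p = 0.0067). The complement gene c1qc followed with 474 and 169 CPM in the thymus against 20.7 and 8.71 CPM in the intestine. In the neutrophil list, 9 of 14 tested were called higher in thymus and none in intestine, with a median of -2.96; myeloperoxidase mpx stood at 149 and 101 CPM in the thymus against 3.61 and 1.47 CPM in the intestine and lysozyme lyz at 2788 and 3772 CPM in the thymus against 347 and 120.2 CPM in the intestine. Further leading genes in thymus were acp5a, an acid phosphatase of macrophages and osteoclasts, and npsn, a neutrophil protease. The level of acp5a was 138 and 123 CPM in the thymus against 2.3 and 0.814 CPM in the intestine. For npsn it was 620 and 262 CPM in the thymus against 29.0 and 11.8 CPM in the intestine. MHC class II genes, which present antigen to CD4 T cells, were higher in thymus as well: mhc2a at 4110.1 and 4109 CPM in the thymus against 592 and 512 CPM in the intestine (adjusted p = 0.0066) and the invariant chain gene cd74a at 11769 and 10919.5 CPM in the thymus against 1000 and 1161 CPM in the intestine (adjusted p = 0.0061).

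Heat shock genes had the largest median difference of the lists: 12 of 17 tested were higher in intestine, none in thymus, and the median log2 difference was 4.37. The inducible chaperone hsp70l was read at 7987 and 6863 CPM in the intestine against 14.4 and 14.9 CPM in the thymus, a log2 difference of 8.98 ± 0.51 (SE; adjusted p = 0.0016). For hsp90aa1.2, an inducible Hsp90, the levels were 9272 and 10078 against 73.4 and 111 CPM. Together the list took 4.24% and 4.80% of all UMIs in the intestine and 0.461% and 0.445% in the thymus. The other adult tissues, which were triturated like the thymus, lay between 0.570% and 1.14%, with kidney marrow at 0.601% and 0.570% and the tessellated lymphoid network (TLN) at 0.805% and 1.14%. In the TLN 319 of 25341 and 184 of 21792 barcodes were kept, and the haemoglobin filter removed 25005 and 21591. The part of collagenase treatment in this difference was not tested, since no intestine was triturated and no other tissue was digested. Reads of hsp70l, hsp70.1, hsp70.2 and hsp70.3, near-identical copies, may be split among them.

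**Figure D1:**
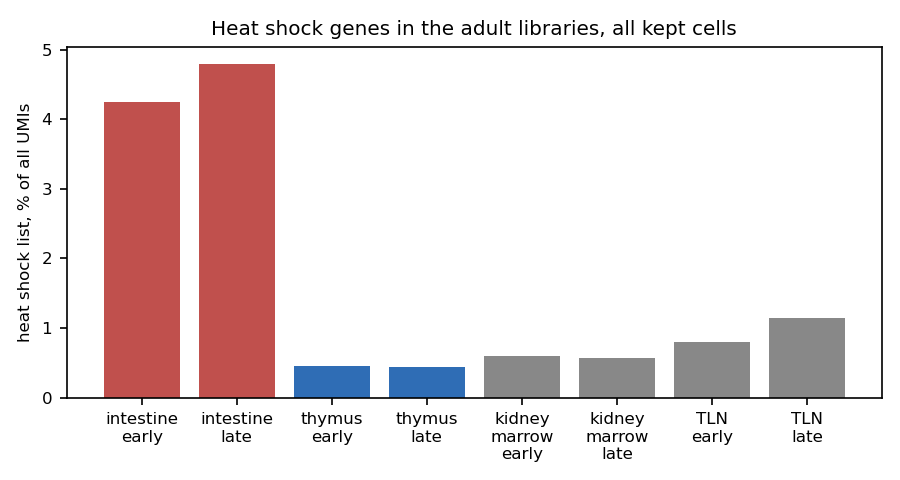
Share of all UMIs, in percent, that fell on the heat shock list in the 8 adult libraries, all kept cells summed, 1 library per bar. The intestinal bars stand at 4.24% and 4.80%, and every other library is at or below 1.14%.

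Cells were then taken by markers. T-marker cells had at least 3 UMIs from at least 2 genes of the T list (T receptor constants, cd247, cd247l, cd8a, cd8b, cd28, lck, zap70, itk), did not meet the B, neutrophil or macrophage lists, and held no UMI of rag1, rag2 or dntt. Lck, zap70 and cd247 are also used by natural killer and innate lymphoid cells, so the gate holds T cells and may hold those relatives. It took 1919 and 2509 cells in the intestine and 603 and 489 in the thymus. The gate was revised after the data were seen, because the macrophage list drawn up first, which removed cells from the T gate, was met by 3354 of 4130 early thymic cells, and it held cd74a and cd74b. The first gate also left out cells that met an epithelial, thymic epithelial, stromal, erythroid or thrombocyte list, and the revised gate kept such cells. Of all kept cells, 92 and 1606 in the intestine and 0 and 0 in the thymus met the epithelial list. The T gate drawn up first called 397 of 7412 tested genes (5.36%), 250 higher in intestine (3.37%) and 147 in thymus (1.98%). Without rag1, rag2 or dntt UMIs it took 602 and 582 intestinal cells and 81 and 100 thymic cells, and 386 of 7323 tested genes were called in it (5.27%), 243 higher in intestine (3.32%) and 143 in thymus (1.95%), or 308 and 81 with total counts. Among them were epas1a, hic1, foxp3a, tnfrsf18, cxcr4b and her9.

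In T-marker cells 640 of 12510 tested genes were called (5.12%), 284 higher in intestine (2.27%) and 356 higher in thymus (2.85%). These shares are the background for every list count given below for T-marker cells. Total counts in place of scaling factors gave 354 to 239, with the median of all genes moving from 0.04 to 0.17. Left without either thymic library the fit called 0 genes, with 1828 and 2116 genes at an unadjusted p under 0.05, so the calls need both. Without the late intestinal library there were 396 and without the early one 987.

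**Figure D2:**
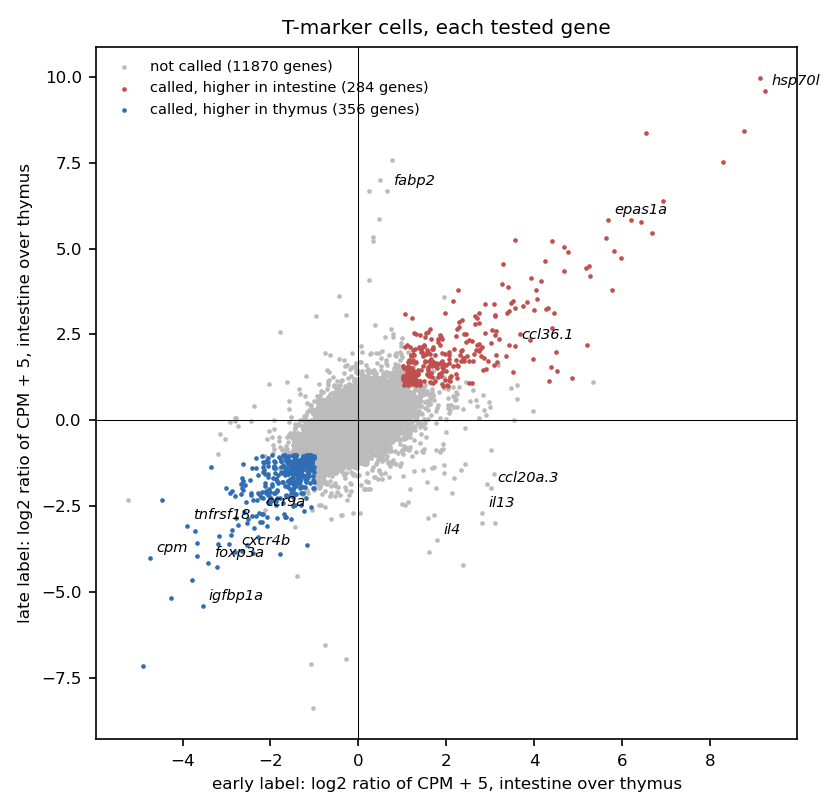
T-marker cells, each of 12510 tested genes as a point, with the log2 ratio of CPM + 5 (intestine over thymus) in the early label on the x axis and in the late label on the y axis. The 284 red points were called higher in intestine and the 356 blue points higher in thymus; enterocyte genes such as fabp2 stand high on the y axis alone, and il4, il13 and ccl20a.3 lie in the quadrant where the labels disagree.

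Heat shock genes were again higher in intestine, 11 of 17 tested, with a median log2 difference of 4.81 against 0.04 over all tested genes. In T-marker cells hsp70l stood at 8512 and 7006 CPM in the intestine against 8.94 and 4.07 CPM in the thymus, and hspbp1, a regulator of Hsp70, at 1842 and 1038 against 13.1 and 19 CPM. The constitutive hsp90ab1 did not pass the test at 3107 and 3112 against 3755 and 3754 CPM (adjusted p = 0.73). In the TLN, hsp70l was read at 12.7 and 244 CPM of all UMIs. All TLN values of T-marker cells rest on 117 and 113 cells, of which 4 and 61 had haemoglobin under 1%. Immediate early genes, which respond within minutes to signals and to handling, were mostly not called. Of 38 tested, 5 were higher in intestine, 2 were higher in thymus and 31 were not called. Over all tested genes the shares called were 2.27% and 2.85%. The AP-1 subunits fosab and jun were higher in intestine, fosab at 1835 and 2292 against 371 and 313 CPM, a log2 difference of 2.59 ± 0.38 (SE; adjusted p = 0.0097), and jun at 893 and 1255 against 224 and 138 CPM, a log2 difference of 2.57 ± 0.41 (SE; adjusted p = 0.013). Higher in thymus was nr4a3, a nuclear receptor gene induced through the T cell receptor, at 186 and 309 CPM in the thymus against 63.4 and 50.6 CPM in the intestine.

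The 12 genes that led in intestinal T-marker cells were 8 chaperone genes or their partners, the feature CABZ01080568.1, and 3 others with hardly any reads in the thymus. Among the 8 was dnajb1b, an Hsp40, at 6588 and 5529 against 83.7 and 91.9 CPM. By its gene ID the feature CABZ01080568.1 carries the symbol dnaja, a heat shock list name that matched no symbol in the files. It was therefore not counted in that list. The hypoxia-responsive transcription factor gene epas1a was read at 267 and 299 CPM in the intestine against 0.319 and 0.339 CPM in the thymus, where it had 1 UMI in each library (adjusted p = 0.00066). Both TLN libraries were likewise near 0, at 0 and 0.857 CPM. The repressor gene hic1, which in mouse is needed by lymphocytes that reside in the gut, stood at 311 and 271 against 0 and 5.43 CPM (adjusted p = 0.0084). The third, plac8l1, stood at 166 and 227 against 1.28 and 2.71 CPM (adjusted p = 0.00085). The intestinal libraries were close to each other in all 3 genes.

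In the thymocyte development list 2 of 29 tested genes were called higher in intestine and 4 in thymus, with 23 not called. Among single genes, those called higher in intestine were tox2, an HMG-box transcription factor gene, at 542 and 578 against 145 and 180.1 CPM (1.78 ± 0.33, adjusted p = 0.02), and mafa, of the Maf family, at 73.5 and 51.0 against 6.39 and 10.2 CPM (2.91 ± 0.38, adjusted p = 0.0062). So was lcp2b, a receptor-proximal adaptor, at 138 and 129 against 15.3 and 25.4 CPM (2.71 ± 0.35, adjusted p = 0.0063). The transcription factor gene irf4a stood at 51.6 and 67.1 against 5.75 and 17.0 CPM (adjusted p = 0.027). Higher in thymus was tcf7, a factor of early and naive T cells, at 398 and 469.7 CPM in the thymus against 129 and 154 CPM in the intestine, a log2 difference of -1.62 ± 0.32 (SE; adjusted p = 0.026); its call was lost without the filter on low counts. The coreceptor gene cd4-1 was also higher there, at 44.7 and 57.7 CPM in the thymus against 6.61 and 9.58 CPM in the intestine, a log2 difference of -2.65 ± 0.33 (SE; adjusted p = 0.0054). Of 10 tested genes of the T receptor list outside the gate itself, 1 was higher in intestine and 2 in thymus. Among the genes that define the gate, and so without a test, cd28 stood at 338 and 170.3 CPM in the thymus against 74.1 and 28.3 CPM in the intestine and cd8a at 98.0 and 137 CPM in the thymus against 89.9 and 58.4 CPM in the intestine.

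Regulatory T cell genes were higher in thymus in 5 of 8 tested, and none was higher in intestine; the median log2 difference was -1.84. The lineage factor foxp3a was read at 179 and 174 CPM in the thymus against 12.2 and 5.06 CPM in the intestine, a log2 difference of -4.37 ± 0.48 (SE; adjusted p = 0.0035). Its paralogue foxp3b stood at 45.7 and 28.5 CPM in the thymus against 3.22 and 4.90 CPM in the intestine, a log2 difference of -3.17 ± 0.38 (SE; adjusted p = 0.0045). For the family member ikzf4 the levels were 17.2 and 17.3 CPM in the thymus against 3.39 and 2.51 CPM in the intestine (adjusted p = 0.0084). Costimulatory receptors were also higher in thymus, tnfrsf18 (GITR) at 1660.3 and 775 CPM in the thymus against 106 and 88.0 CPM in the intestine, a log2 difference of -3.65 ± 0.48 (SE; adjusted p = 0.0065). For tnfrsf9a (4-1BB) the levels were 2002 and 1927 CPM in the thymus against 487 and 364 CPM in the intestine, a log2 difference of -2.21 ± 0.38 (SE; adjusted p = 0.015). In TLN T-marker cells foxp3a stood at 58.0 and 137 CPM of all UMIs, above both intestinal libraries and below both thymic ones. The list's ikzf2 did not pass, at 54.9 and 76.9 CPM in the intestine against 27.1 and 53.2 CPM in the thymus (edgeR adjusted p = 0.32). In macrophage-marker cells, described below, 2 of 5 tested genes of this list were also higher in thymus, against 6.00% of all tested genes. The list summed there to 543 and 569 CPM in the thymus against 140 and 239 CPM in the intestine. The share of free RNA in these reads was not tested.

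Chemokine receptors were higher in thymus where they differed. In the homing list 6 of 26 tested genes were higher in thymus and 1 in intestine, with a median of -0.31. The Ccl25 receptor gene ccr9a was read at 5098 and 4711 CPM in the thymus against 1054 and 728 CPM in the intestine. The log2 difference was -2.46 ± 0.43 (SE, edgeR adjusted p = 0.016). The Cxcl12 receptors cxcr4b, at 1959 and 1848 CPM in the thymus against 278 and 126 CPM in the intestine, a log2 difference of -3.24 ± 0.49 (SE; adjusted p = 0.01), and cxcr4a, at 346 and 234 CPM in the thymus against 80.2 and 47.7 CPM in the intestine, a log2 difference of -2.18 ± 0.39 (SE; adjusted p = 0.018), differed the same way. So did cxcr3.1, a receptor of interferon-induced chemokines, at 69.9 and 41.4 CPM in the thymus against 11.7 and 13.1 CPM in the intestine, and 2 features named ccr2. The cxcr3.1 call was lost with total counts and without cells that meet the natural killer list. Another feature named cxcr3.1 was below the filter on low counts, with 7 and 31 UMIs in the intestine and 1 and 2 in the thymus. In thymic cells of other gates ccr9a was read at a like level, 3989 and 3453 CPM in the thymus against 452 and 465 CPM in the intestine in macrophage-marker cells, and the share of free RNA in these reads was not tested. The paralogue ccr9b did not pass, at 40.5 and 41.7 CPM in the intestine against 21.4 and 37.0 CPM in the thymus (edgeR adjusted p = 0.42). Nor did ccr7, which leads cells to lymphoid tissue, at 102 and 161 CPM in the intestine against 31.3 and 86.1 CPM in the thymus (edgeR adjusted p = 0.2). The integrin genes itgae.2, relative of the CD103 chain that holds lymphocytes in epithelium, and itgb7 did not pass either. The level of itgae.2 was 447 and 443 CPM in the intestine against 249 and 411 CPM in the thymus. For itgb7 it was 33.1 and 45.7 CPM in the intestine against 20.4 and 39.3 CPM in the thymus. Higher in intestine was rgs18, which damps receptor signalling, at 161 and 214 against 49.8 and 68.8 CPM, a log2 difference of 1.66 ± 0.33 (SE; adjusted p = 0.027).

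Of 21 tested cytotoxic effector genes, 7 were called higher in thymus, 2 in intestine and 12 were not called, and the median log2 difference was -0.92. Called higher in thymus were granzyme genes. The level of gzma was 188 and 217 CPM in the thymus against 28.9 and 25.5 CPM in the intestine, a log2 difference of -2.90 ± 0.31 (SE; adjusted p = 0.0034). For gzmk the levels were 214 and 205 CPM in the thymus against 51.2 and 53.6 CPM in the intestine, a log2 difference of -2.0 ± 0.30 (SE; adjusted p = 0.0098). The T-box factor eomesa, which drives cytotoxic programmes, stood at 14.0 and 9.84 CPM in the thymus against 1.24 and 0.544 CPM in the intestine (adjusted p = 0.0092). The death ligand faslg was called higher in intestine, at 61.2 and 70 against 3.19 and 10.9 CPM, a log2 difference of 3.23 ± 0.51 (SE; adjusted p = 0.012). The other intestinal call was ifng1r, at 13.5 and 8.07 against 0 and 0.339 CPM. Granzyme genes are also the markers of the natural killer list: once cells that meet it were left out, gzma and gzmk no longer passed, which that gate's construction brings about.

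Of 11 tested chemokine genes, 4 were called higher in intestine and 1 in thymus, and the list's median log2 difference was -0.42, towards thymus. None of 12 tested inflammatory cytokine genes was called, and 2 of 14 cytokine receptor genes were called higher in intestine. The chemokine ccl36.1 was read at 1214 and 919.8 CPM in the intestine against 97.7 and 199 CPM in the thymus, a log2 difference of 2.84 ± 0.46 (SE; adjusted p = 0.013). Its relative ccl38.6 stood at 495 and 392 against 54.0 and 125 CPM, a log2 difference of 2.31 ± 0.46 (SE; adjusted p = 0.025), and ccl38a.4 at 207 and 125 against 24.3 and 32.2 CPM, a log2 difference of 2.55 ± 0.38 (SE; adjusted p = 0.0095). The exception was ccl19a.1, a ligand of Ccr7, at 15.0 and 31.5 CPM in the thymus against 2.40 and 1.67 CPM in the intestine, a log2 difference of -3.53 ± 0.47 (SE; adjusted p = 0.0065). Among receptors, il21r.1, which receives interleukin 21, stood at 130.0 and 155 against 28.7 and 47.1 CPM (1.91 ± 0.35, adjusted p = 0.019). The suppressor of cytokine signalling socs1a stood at 165 and 146 against 16.9 and 40.7 CPM (2.43 ± 0.44, adjusted p = 0.018), and the interferon signal transducer stat1b at 86.8 and 217 against 15.6 and 14.9 CPM (3.31 ± 0.49, adjusted p = 0.0095). In the type 3 list, 2 of 13 tested were called higher in intestine: mafa, above, and il17a/f3, a cytokine of the interleukin 17 family, at 167 and 19 against 3.51 and 5.77 CPM (adjusted p = 0.04), high in the early library alone and not called when a cell had to show 5 UMIs from 3 T genes. The lineage factor rorc did not pass, at 192 and 75.4 against 48.9 and 72.2 CPM (adjusted p = 0.19).

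Another T-marker gene higher in thymus was cpm, a carboxypeptidase, at 135 and 86.5 CPM in the thymus against 0.248 and 0.628 CPM in the intestine, a log2 difference of -7.83 ± 0.53 (SE; adjusted p = 0.00066). The surface glycoprotein gene cd99 stood at 124 and 182 CPM in the thymus against 4.30 and 2.47 CPM in the intestine, a log2 difference of -5.52 ± 0.44 (SE; adjusted p = 0.0012). The Hes-family repressor her9 stood at 486 and 469 CPM in the thymus against 33.8 and 25.8 CPM in the intestine, a log2 difference of -4.00 ± 0.36 (SE; adjusted p = 0.0016). The growth factor carrier igfbp1a stood at 434 and 686 CPM in the thymus against 32.7 and 11.2 CPM in the intestine, a log2 difference of -4.68 ± 0.60 (SE; adjusted p = 0.006). Also among the 12 leading genes was the cAMP-responsive regulator cremb at 485 and 243 CPM in the thymus against 33.5 and 15.7 CPM in the intestine. So were the collagenase gene mmp13b, at 82.4 and 65.8 CPM in the thymus against 4.63 and 0.795 CPM in the intestine, and the actin crosslinker flna. The level of flna was 110 and 132 CPM in the thymus against 7.27 and 2.09 CPM in the intestine. The remaining 3 were hbegfb, npl and igflr1. In TLN T-marker cells cd99 stood at 187 and 282 CPM of all UMIs and flna at 183 and 238, above both thymic libraries. There cpm, at 119 and 239, cremb and npl overlapped the thymic levels. The level of igflr1 was 82.5 and 112 CPM of all UMIs in the TLN, above 68.5 and 81.7 CPM of all UMIs in the thymus. Of the leading genes, her9, at 16.3 and 43.7, igfbp1a, hbegfb, mmp13b, foxp3a and tnfrsf18 were below both thymic libraries in the TLN. The pro-apoptotic genes baxa, baxb, bida and pmaip1 were called higher in thymus, 4 of 18 tested, against 1, the cell cycle inhibitor cdkn1a, in intestine; the calls of baxa and baxb were lost with total counts, and that of pmaip1 with edgeR's RLE factors. As an example, bida stood at 247 and 191 CPM in the thymus against 83.8 and 51.1 CPM in the intestine, a log2 difference of -1.70 ± 0.36 (SE; adjusted p = 0.032). Its call was lost without the filter on low counts, as were those of baxb and pmaip1. Of 29 tested cell cycle genes, 3 were higher in intestine and none in thymus.

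Markers of other cell types were also read in T-marker cells. The epithelium list summed to 21.5 and 1954 CPM in the intestine and 9.90 and 9.16 CPM in the thymus, so the late intestinal library alone carried it, and no member of 7 tested was called; fabp2 in that library stood at 507 CPM within the gate and at 1319 CPM over all cells. The macrophage list summed to 87.3 and 177.7 CPM in the intestine and 319.6 and 130.2 CPM in the thymus, and 2 of its 13 tested members, ctsba and ctsd, were called higher in thymus. Both calls were lost with total counts. The neutrophil list summed to 3272 and 2291 CPM in the intestine and 3737 and 3917 CPM in the thymus, with 0 of 6 tested called. Most of it was cebpb and srgn, which other blood cells also use. The lysozyme gene lyz stood at 1.16 and 5.27 against 42.8 and 23.1 CPM. The B lineage list summed to 889.5 and 896.7 CPM in the intestine and 789.9 and 866.2 CPM in the thymus, and 2 of its 9 tested members, irf4a and blnk, were called higher in intestine. The part of these cells in the other differences was not tested.

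**Figure D3:**
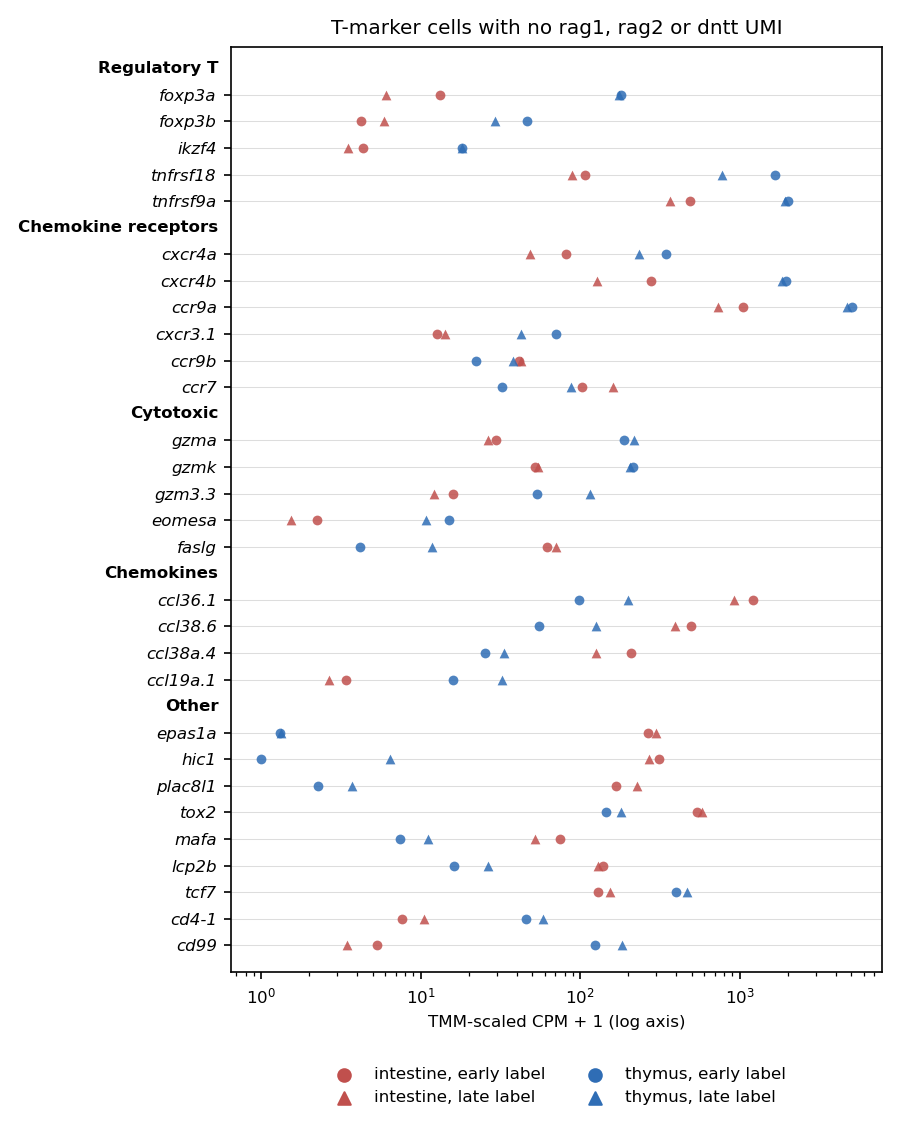
CPM + 1 (log axis) of genes grouped by role in T-marker cells, with 1 point per library; red is intestine, blue thymus, circles the early and triangles the late label. Regulatory T genes, Cxcr4 and Ccr9a receptor genes and granzyme genes have both blue points to the right of both red ones, whereas faslg, 3 of the 4 chemokine genes, epas1a, hic1 and plac8l1 have both red points to the right.

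The natural killer gate drawn up at the outset took 57 and 36 intestinal cells and 74 and 36 thymic cells. Of all kept cells, 216 and 342 in the intestine and 717 and 250 in the thymus met the natural killer list. This gate was not revised, so cells that met the first macrophage list, with cd74a and cd74b, or another list were left out. In it 88 of 2413 tested genes were called (3.65%), 60 higher in intestine (2.49%) and 28 in thymus (1.16%), and total counts gave 74 to 81. Leaving out the early or late intestinal library gave 317 or 452. The genes called repeated those of T-marker cells in part: hsp70l at 9394 and 11521 against 0 and 5.69 CPM, her9 at 2012 and 1717 CPM in the thymus against 87.2 and 63.6 CPM in the intestine (adjusted p = 0.0028) and cxcr4b at 4271 and 2121 CPM in the thymus against 652 and 268 CPM in the intestine (adjusted p = 0.036). These were few cells, so a gene not called here may still differ. The T-marker gate did not leave out cells that met the natural killer list, so a cell may be in both gates.

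Macrophage-marker cells had at least 3 UMIs from at least 2 genes of mpeg1.1, mfap4, marco, csf1ra, c1qa, c1qb and c1qc and met no T, natural killer, B or neutrophil list. The first macrophage gate, with cd74a and cd74b, called 1074 of 13043 tested genes (8.23%), 347 higher in intestine (2.66%) and 727 in thymus (5.57%), and is not described further. Macrophage-marker cells numbered 165 and 127 in the intestine and 342 and 83 in the thymus. This gate, too, kept cells that met an epithelial, thymic epithelial, stromal, erythroid or thrombocyte list. With such cells left out it took 158 and 72 cells in the intestine and 341 and 82 in the thymus, and 296 genes were called. Fewer cells entered that fit, and it left the marker genes of all gates out of its calls. In the macrophage-marker cells, with such cells kept, 773 of 8635 tested genes were called (8.95%), 255 higher in intestine (2.95%) and 518 higher in thymus (6.00%). The count was 1240 without the early and 1765 without the late intestinal library, and 448 without the late thymic one; with at least 5 UMIs from 3 genes asked of a cell it was 485. The epithelium list was carried into this gate too, at 208.3 and 4996 CPM in the intestine against 387.5 and 943.2 CPM in the thymus, of which nearly all in thymus was krt8, at 387 and 943 CPM, while fabp2 and apoa1a were at 0 there. Of its tested members 4 of 5 were called higher in intestine, with a median log2 difference of 4.14, and so were 3 of 4 of the pancreas and liver list. In the neutrophil list 2 of 7, cxcr1 and mmp13a, were called higher in thymus. Beyond the count of 296 without the cells of other lists, the part of these cell types in the other differences was not tested.

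Of 12 tested chemokine genes in macrophage-marker cells, 4 were called higher in thymus and 1, ccl36.1, in intestine. The chemokine cxcl19 was read at 4816 and 2870.1 CPM in the thymus against 83.9 and 12.1 CPM in the intestine, a log2 difference of -6.31 ± 0.99 (SE; adjusted p = 0.0035), and ccl34b.1 at 2460.4 and 1966 CPM in the thymus against 57.6 and 108 CPM in the intestine, a log2 difference of -4.74 ± 0.67 (SE; adjusted p = 0.0022). The neutrophil attractant cxcl8a stood at 714 and 2087 CPM in the thymus against 207 and 107 CPM in the intestine, a log2 difference of -3.15 ± 0.68 (SE; adjusted p = 0.015). The receptor gene cmklr1, which senses chemerin, stood at 421 and 464 CPM in the thymus against 5.06 and 10.2 CPM in the intestine, a log2 difference of -5.87 ± 0.60 (SE; adjusted p = 0.00073).

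Of the lysosomal proteases, cathepsin B (ctsba) stood at 1686 and 1476 CPM in the thymus against 149 and 135 CPM in the intestine, a log2 difference of -3.47 ± 0.57 (SE; adjusted p = 0.004). Cathepsin D (ctsd) stood at 1396 and 803 CPM in the thymus against 81.4 and 95.7 CPM in the intestine, a log2 difference of -3.63 ± 0.58 (SE; adjusted p = 0.0036). Legumain (lgmn) stood at 1399.7 and 1011 CPM in the thymus against 169.9 and 230.3 CPM in the intestine, a log2 difference of -2.59 ± 0.55 (SE; adjusted p = 0.014). The haem-degrading enzyme gene hmox1a stood at 602 and 2779 CPM in the thymus against 100.1 and 138 CPM in the intestine (adjusted p = 0.011), with the late library well above the early one. For antigen presentation, 4 of 23 tested genes were higher in thymus and none in intestine. The class II chain mhc2a was read at 8699 and 12489.8 CPM in the thymus against 1578 and 1832 CPM in the intestine, a log2 difference of -2.64 ± 0.71 (SE; adjusted p = 0.041); its call was lost with edgeR's RLE factors and in libraries thinned to equal totals, and cd74a did not pass, at 24018 and 30872 CPM in the thymus against 2492 and 5303 CPM in the intestine (adjusted p = 0.06). Transcription factors differed too: prdm1a (Blimp-1) stood at 239.9 and 237 CPM in the thymus against 17.2 and 19.1 CPM in the intestine, a log2 difference of -3.71 ± 0.47 (SE; adjusted p = 0.0016). The repressor bhlhe40 stood at 1080.1 and 1116 CPM in the thymus against 135 and 165 CPM in the intestine, a log2 difference of -2.87 ± 0.53 (SE; adjusted p = 0.0071). For mafbb, a factor of macrophage identity, the levels were 538 and 312 CPM in the thymus against 82.9 and 87.4 CPM in the intestine, a log2 difference of -2.32 ± 0.50 (SE; adjusted p = 0.015). The myeloid master regulator spi1b did not pass, at 601 and 1189 against 788 and 1285 CPM (adjusted p = 0.87). The macrophage list itself, outside the gate genes, had 6 of 15 tested higher in thymus and none in intestine, with a median of -1.80.

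Higher in intestinal macrophage-marker cells were heat shock genes, 12 of 17 tested with a median of 4.65. The small heat shock gene hspb1 stood at 766 and 379 against 0.656 and 0 CPM, with 0 in the late thymic library (adjusted p = 0.00052), and hsp70l at 6132 and 7293 against 7.54 and 38.1 CPM (adjusted p = 0.0016). Of stem and progenitor genes, runx1, which also acts in mature blood cells, stood at 42.5 and 103 against 11.5 and 6.73 CPM, a log2 difference of 2.91 ± 0.58 (SE; adjusted p = 0.01). The lipid droplet gene plin2 followed at 147 and 81.7 against 17.0 and 3.36 CPM, a log2 difference of 3.3 ± 0.63 (SE; adjusted p = 0.0081).

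**Figure D4:**
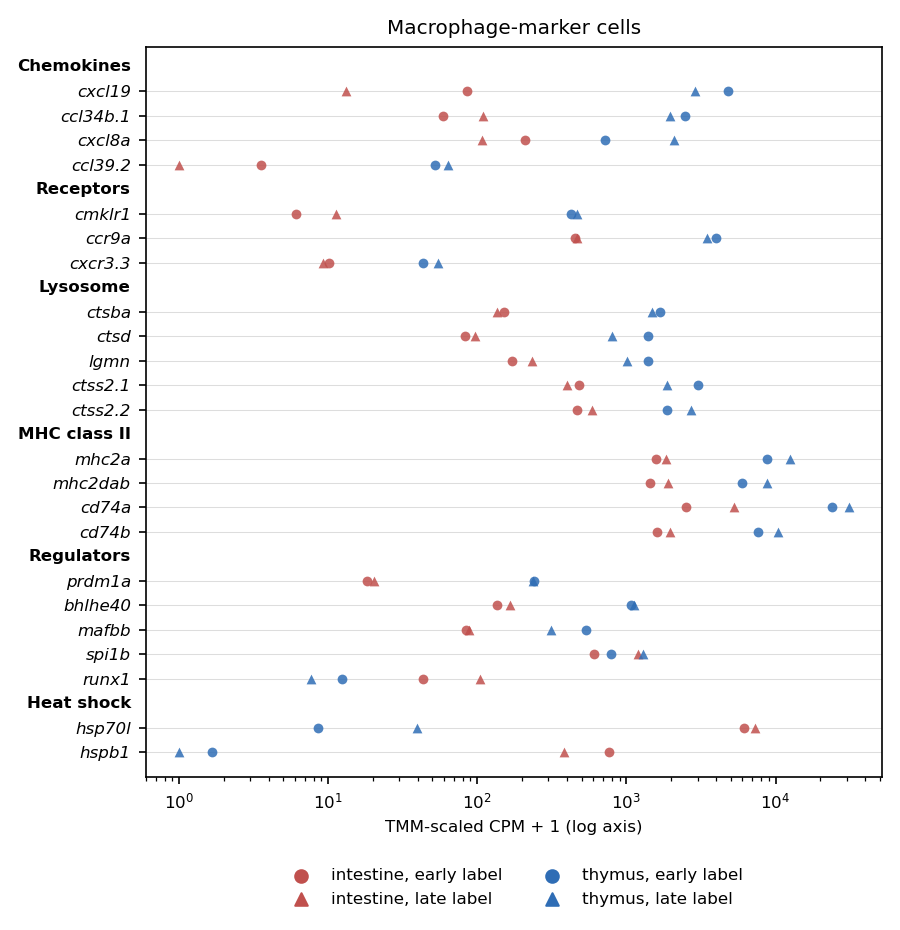
CPM + 1 (log axis) of genes grouped by role in macrophage-marker cells, 1 point per library; red is intestine, blue thymus, circles the early and triangles the late label. Chemokine, receptor, lysosome and MHC class II genes shown, of which cd74a, cd74b and mhc2dab were not called, have both blue points to the right of both red ones, hsp70l, hspb1 and runx1 have both red points to the right, and spi1b is mixed.

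B-marker cells were too few in the intestine for a test, 28 and 10, against 280 and 361 in the thymus. Over all cells 17 B lineage genes were tested: 2 were called higher in thymus, 1 higher in intestine and 14 were not called. Of all genes tested over all cells, 4.47% were called higher in thymus and 2.50% higher in intestine. The list's median log2 difference was -0.83. The B lineage gene cd37 stood at 16.2 and 78.6 CPM in the thymus against 1.31 and 0.305 CPM in the intestine (edgeR adjusted p = 0.014). The transcription factor pax5 stood at 5.72 and 21.9 CPM in the thymus against 1.57 and 1.34 CPM in the intestine. It was not called, since the ratio of CPM + 5 was under 2-fold in the early label. The share of kept cells in the T-marker gate before the rag filter was 24.5% and 42.1% in the intestine and 15.9% and 28.4% in the thymus. Macrophage-marker cells made up 2.08% and 2.06% against 8.28% and 4.69%. B-marker cells made up 0.353% and 0.162% against 6.78% and 20.4%. An exact permutation test of 2 libraries against 2 cannot give a p below 0.333, so these shares were not separated by a test, and they cover gated cells only.

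A few cytokine and chemokine genes differed between the tissues in opposite directions in the early and the late label, and were therefore not called. In T-marker cells il4 was read at 203 and 18 CPM in the intestine against 54.6 and 255 CPM in the thymus. For il13 the levels were 365 and 39.8 against 47.3 and 286 CPM, and for ccl20a.3 1299 and 167 against 156 and 671 CPM. The early intestinal and the late thymic library were high, and the other 2 libraries low. Of 12529 genes with a value, 32 were at least 2-fold different in opposite directions in the labels and 715 at least 2-fold different in the same direction.

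**Figure D5:**
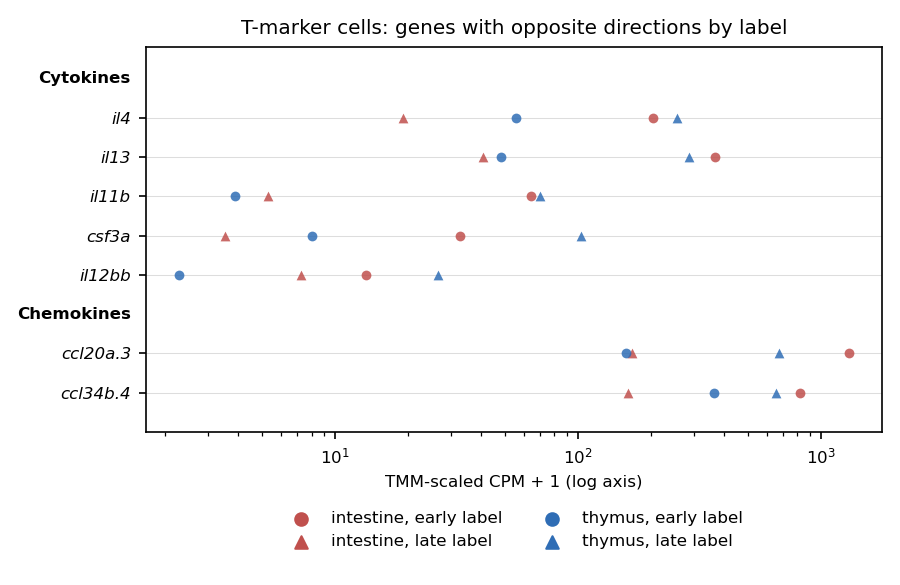
CPM + 1 (log axis) of 7 cytokine and chemokine genes in T-marker cells that differed at least 2-fold in opposite directions in the labels, 1 point per library. In each row the early intestinal circle and the late thymic triangle stand to the right.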

How the data were processed

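mCherry-sorted cells were profiled by droplet single-cell RNA sequencing (Chromium 3' chemistry, kit version 4, per the labels' protocols). The authors deposited raw UMI counts per gene and barcode, whole numbers of 27758 features, made with Cell Ranger 9.0.0 per the file headers; the submitters' processing notes name Cell Ranger 8.0.1 and build GRCz11. Symbols are used as in the files.

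Cells were filtered as given in the report; hbegfa and hbegfb, which match the haemoglobin name pattern, are no globins and were not counted. No doublet caller was run. UMIs were summed per library and gate and tested with edgeR 4.0.16 (R 4.3.3; TMM, filterByExpr, quasi-likelihood, tissue as the only term; genes that define a gate left out of its calls), tested on simulated data first. Alternatives were the label as a replicate block, DESeq2 1.42.0, other scaling, other filters and folds, thinned counts, and fits without each library. The T-marker, macrophage-marker and B-marker gates were chosen after seeing the data. T receptor constants are named TCRaC, TCRbC1 and so on in the files. Tables were handled in Python 3.11.15 with pandas 2.3.3.

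Genes named first are, per direction, the 12 called (5 in other gates) with the largest smaller ratio of the 2 labels, at least 50 UMIs in each library of the higher tissue and no colon in the symbol; the others are members of listed pathways. The members and lists were chosen with earlier results of these data known. Each SE was the size of the log2 difference divided by the square root of the quasi-likelihood F statistic. It therefore includes the spread between libraries as well as counting error.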

Additional observations from a re-analysis of the deposited data

Results flagged for a closer look

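In T-marker cells, 10 of 385 listed genes with a value differed at least 2-fold between the tissues in opposite directions in the early and the late label, with at least 50 UMIs in a library. Each direction rests on 1 library per tissue, and the difference between labels was not tested. The early log2 ratio of intestine to thymus (CPM + 5) minus the late one was 5.30 for il4 and 5.52 for il13, the type 2 cytokines. It was 4.99 for ccl20a.3 and 3.17 for ccl34b.4, both chemokines. It was 6.10 for il11b, 5.44 for csf3a and 2.91 for il12bb, cytokine genes. For cahz, an erythroid carbonic anhydrase, it was 3.51. It was -3.07 for grn1, a granulin, and -4.35 for 1 of the features named rrm2, a subunit of ribonucleotide reductase; features of the same symbol may share reads.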

How the results depend on the processing

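Of the called genes followed by name in all cells, T-marker cells and macrophage-marker cells, direction was the same in every alternative that gave a value except il6r and cpa5: over all cells in the T, natural killer, B or macrophage gates il6r became 0.51 and cpa5 1.16 (log2, intestine minus thymus). These genes were chosen as at least 2-fold different the same way in both labels, so their shared direction was largely set by that choice.

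Counts of called genes were, for all cells, 1227, and 2109 and 309 at a fold of 1.5 and 4. For T-marker cells they were 640, and 144 at a fold of 4. At that fold the first T gate had 182 and its rag-free form 194. For macrophage-marker cells the count was 257 at a fold of 4 and 485 with the gate of 5 UMIs from 3 genes. For the first macrophage gate it was 1645 and 310 at a fold of 1.5 and 4, and 296 with its list freed of cd74a and cd74b. That freed gate holds the macrophage-marker cells that met no epithelial, thymic epithelial, stromal, erythroid or thrombocyte list. In the natural killer gate the count of 88 became 155 with total counts, 157 without a filter on low counts and 316 with the stricter gate. Without 1 library the range was 773 to 1689 for all cells, 0 to 987 for T-marker cells, 101 to 729 and 73 to 1329 for the first T gate and its rag-free form, 61 to 452 for the natural killer gate, 972 to 1833 for the first macrophage gate and 448 to 1765 for macrophage-marker cells. A lone library was assumed to vary like the others, and the 2-fold rule was then asked in 1 label only. The cause of these changes was not tested.

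With the label as a replicate block, the paired fit called 1239 genes in all cells, 685 in T-marker cells, 1047 in macrophage-marker cells and 134 in the natural killer gate; the label is all that same-label libraries are known to share, and their deviations from the tissue means correlated over genes with r = 0.0071 in all cells, -0.024 in T-marker cells and 0.14 in macrophage-marker cells. Of 90 called genes followed in T-marker cells, 89 stayed called with the block, 90 with DESeq2 and 71 without a filter on low counts, where tcf7, bida and il17a/f3 were among those lost.

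Shares in the gates as first drawn, intestine minus thymus in percentage points, were 4.74 for T, -1.26 for natural killer, -9.70 for macrophage and -0.055 for B cells. With cells thinned to 1000 UMIs they were 2.55, -2.61, -24.1 and -0.43, and with the gate of 5 UMIs from 3 genes the natural killer value was -7.20 and the B value -7.97.

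In T-marker cells the direction of il13, il4, ccl20a.3, csf3a and il11b, none of them called, turned with single libraries. Without 1 library the log2 value lay between -2.05 and 2.1 for il13, -1.30 and 2.23 for ccl20a.3, -3.09 and 1.02 for il4, -4.42 and 1.27 for csf3a and -3.05 and 3.54 for il11b. For il13 it was -0.19 in cells with at most 1 cell cycle UMI and -0.075 without natural killer list cells, and for il11b 1.86 with the stricter gate. The fit of all 8 adult libraries was not run in the gates, since no kidney marrow cell entered the T-marker gate. In kidney marrow 341 and 242 cells met the T list. The neutrophil list, which removes cells from the gate, was met there by 25979 of 25987 and 19273 of 19274 cells. The empty gate therefore does not show that kidney marrow lacked T cells.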
